A study of Sus scrofa with 4 samples.

Results

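Transcripts of 10 regulators of the integrated stress response and the unfolded protein response were compared between cultured pig (Sus scrofa) aortic valve interstitial cells with and without a nitric oxide (NO) donor. The regulators were ATF3, ATF4, ATF5, ATF6, DDIT3, DDIT4, TRIB3, XBP1, ASNS and SESN2, taken by symbol; all 10 had a row among the 14804 of the authors' deposited table, and all 10 were measured, meaning that the authors gave them an adjusted p-value, as 13943 rows have. Valve interstitial cells are the fibroblast-like cells of the valve leaflet. The cells were primary cultures, and the labels give no donor animal. The control was kept for 5 days without a donor, and the other library came from 5 days with detaNONOate at 150 µM, a compound that releases NO. A library after donor withdrawal (3 days with donor, 2 without) and one with 200 µM S-nitrosoglutathione were not analysed here. Each was a droplet single-cell library aimed at about 2000 cells, but the table gives no values per cell. How cells were filtered and doublets treated is not given in the sources used here.

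The labels give 1 library per group, and the table holds 3 columns for each. How these columns were made is not given in the sources used here, so they were summed as parts of 1 library and the donor was not tested against the control. An effect of the donor and a difference between these 2 cultures cannot be told apart, nor can fewer cells expressing a gene and less RNA of it per cell. The control columns held 6486628 to 8067661 counts and the NO donor columns 7064703 to 7151367, with 21807024 and 21289316 counts in all. Values are normalized counts, which are counts divided by the authors' size factor. Bracketed ranges are 95% intervals for counting error alone, exact ones except for ratios between genes, which have Wald intervals. A gene is called higher or lower at a log2 ratio of NO donor over control of 0.5 or more in size. Scaling to total counts instead adds 0.60 to every log2 ratio and puts the median of all measured genes at 0.60 in place of 0.00, so calls that depend on it are named.

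In the integrated stress response, kinases that sense amino acid shortage, haem shortage, double-stranded RNA or misfolded protein in the endoplasmic reticulum (ER) phosphorylate the initiation factor eIF2. Bulk translation then drops, while ATF4 protein is made more efficiently and switches on genes of amino acid supply, redox balance and, with CHOP, cell death. The unfolded protein response of the ER uses the kinase PERK, which feeds into ATF4, the nuclease IRE1, which splices XBP1 mRNA, and ATF6, which is cut free in the Golgi. Much of this control acts on translation, splicing and cleavage, which gene counts do not measure. The roles given here are known from human and mouse cells.

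The stress transcription factors ATF3, DDIT3 and ATF4 were higher in the NO donor library, while the amino acid enzyme gene ASNS, XBP1, TRIB3 and DDIT4 were lower. ATF3 was 8.62-fold higher and DDIT3, which encodes CHOP, 4.63-fold higher, whereas ASNS was 9.15-fold lower and XBP1 2.66-fold lower. By the size rule 3 of 10 members were higher, where 29.5% of all measured genes were, and 4 of 10 were lower, where 32.0% were. These shares lie near the background, and the median of the members, −0.06, lies near that of all measured genes; the 10 genes went in opposite directions. Under total count scaling 5 members were higher, against 53.9% of measured genes, and 2 were lower, against 18.6%.

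**Figure D1:**
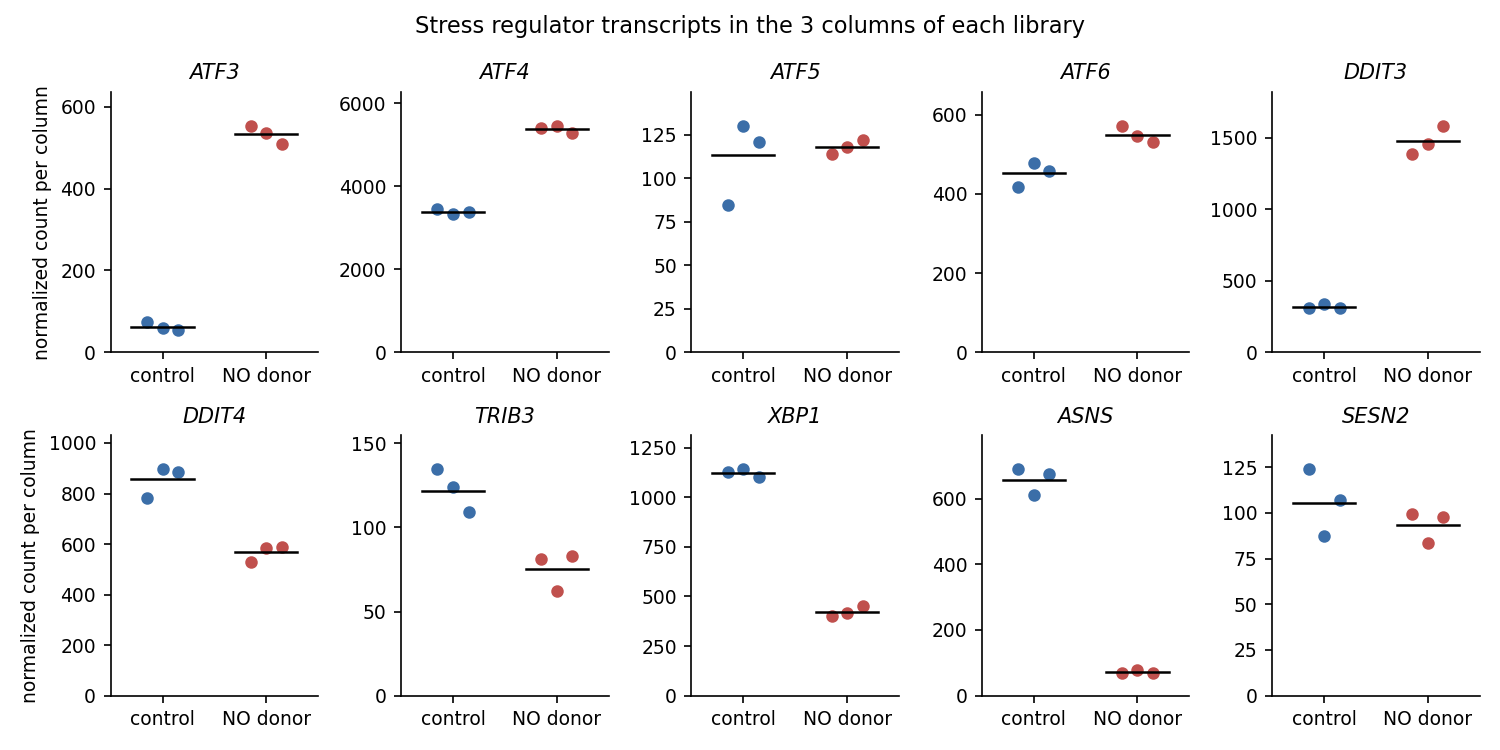
Normalized count (vertical axes, from 0, separate scale per gene) of the 10 regulators in the 3 columns of the control library (blue) and of the NO donor library (red); black bars are the level of the summed library. The NO donor columns lie above the control columns for 4 genes, against 36.7% of measured genes, and below for 4, against 36.3%. The columns of ATF5 and SESN2 overlap.

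Among the transcription factors downstream of eIF2, ATF4 is the main effector. Its normalized counts were 3446, 3335 and 3385 in the control columns and 5401, 5454 and 5282 in the NO donor columns. Every NO donor column lay above every control column. From 3387 (3315 to 3460) to 5380 (5305 to 5455) the log2 ratio was 0.67 (0.63 to 0.70), 1.59-fold, and 1.26 under total count scaling. ATF4 lies at chr5:8742964-8745752 of Sscrofa11.1, and no other annotated gene overlaps it.

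DDIT3 encodes CHOP, a C/EBP family factor that pairs with ATF4 and promotes death under lasting ER stress. It had 307, 338 and 311 normalized counts in the control columns and 1384, 1456 and 1582 in the NO donor columns. The groups of columns were far apart, although the NO donor columns varied 8.36 times as much as Poisson counting gives. The log2 ratio was 2.21 (2.10 to 2.32). DDIT3 (chr5:22785441-22789867) overlaps MARS, the methionyl-tRNA synthetase gene on the opposite strand, and whether counting used strand is not given in the sources used here. MARS itself, named for this overlap after its value was seen, had a log2 ratio of −1.17, opposite in sign to that of DDIT3.

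ATF3 encodes a stress-induced factor that is also an immediate early gene, and ATF4 is among its activators. It had 74.0, 58.3 and 55.1 normalized counts in the control columns and 553, 536 and 509 in the NO donor columns. The lowest NO donor column was thus several times the highest control column. The log2 ratio was 3.11 (2.87 to 3.35), rank 162 from the highest among 11746 genes with at least 50 counts; DDIT3 had rank 292 and ATF4 rank 2627. ATF5, a related factor tied to the mitochondrial stress response, had 84.7, 130.0 and 121 normalized counts in the control columns and 114, 118 and 122 in the NO donor columns. These columns overlapped, and the log2 ratio of 0.06 (−0.16 to 0.28) held 0; total count scaling moved it to 0.65. ATF5 (chr6:54945067-54950142) overlaps IL4I1 and NUP62 on the other strand.

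Because ATF4 and CHOP bind composite C/EBP-ATF response elements, the 250 bases before each annotated RefSeq start of the 10 genes were searched for TGATGNAAN on both strands. Of 23 such windows, 3 held it, where 2.33% of the 47814 windows of all protein-coding genes did. They were 2 overlapping windows of ATF3 and 1 of SESN2, all at inner starts, and none of the 10 outermost starts had it, where 2.59% of all outermost starts did. The sites shown are all the matches of this element in the member windows. Capitals mark the match, read along each gene's strand. ATF3 had the highest ratio of the 10, and SESN2 was not past the size rule. The first ATF3 site lies 20 to 12 bases before an inner start (chr9:130785508-130785536, minus strand), the second 214 to 206 bases before that start (chr9:130785702-130785730), and the SESN2 site 59 to 51 bases before an inner start (chr6:85324164-85324192, plus strand).
ATF3 near site: ataaaaggggTGATGCAACgcactcccag
ATF3 far site: cctccccgagCTTGCATCAccagtccccc
SESN2 site: tcagcatagcTGATGCAACagtggagagt
The near ATF3 site and the SESN2 site hold the same 9 letters. A match describes letters and not binding, and genes with and without it were found among the higher members. Whether an annotated start is used in these cells was not tested, and bases outside the windows were not searched. A window without a match thus does not show that a gene lacks the element.

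ASNS, asparagine synthetase, and TRIB3, a pseudokinase that restrains ATF4 and the kinase AKT, are known targets of ATF4. ASNS (chr9:77318341-77336290) had 689, 610 and 674 normalized counts in the control columns and 68.4, 77.1 and 69.9 in the NO donor columns. No NO donor column came near a control column. The log2 ratio was −3.19 (−3.39 to −3.01), rank 312 from the lowest of the 11746 genes, and −2.60 under total count scaling. TRIB3 (chr17:34808273-34819592) had 135, 124 and 109 normalized counts in the control columns and 81.4, 62.5 and 83.0 in the NO donor columns. The columns were apart but closer, with a log2 ratio of −0.69 (−0.93 to −0.45). Under total count scaling the TRIB3 ratio was −0.09, which is no longer past the size rule.

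Ratios between members within a library do not depend on scaling. Per ATF4 count the control held 0.0941 DDIT3 counts and the donor-treated cells 0.274, a change of 2.91-fold (Wald interval for counting error 2.69 to 3.15). Against ASNS, ATF4 counts went from 5.15 to 74.9 per ASNS count, 14.5-fold (12.7 to 16.6). Against TRIB3 they went from 27.9 to 71.2, 2.55-fold (2.17 to 3.01). The ATF4 transcript was thus higher relative to both of these targets under any scaling, while DDIT3 and ATF3 were higher relative to ATF4, ATF3 by 5.43-fold (4.60 to 6.41). The span from ASNS to ATF3 was 6.30 log2 units.

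**Figure D2:**
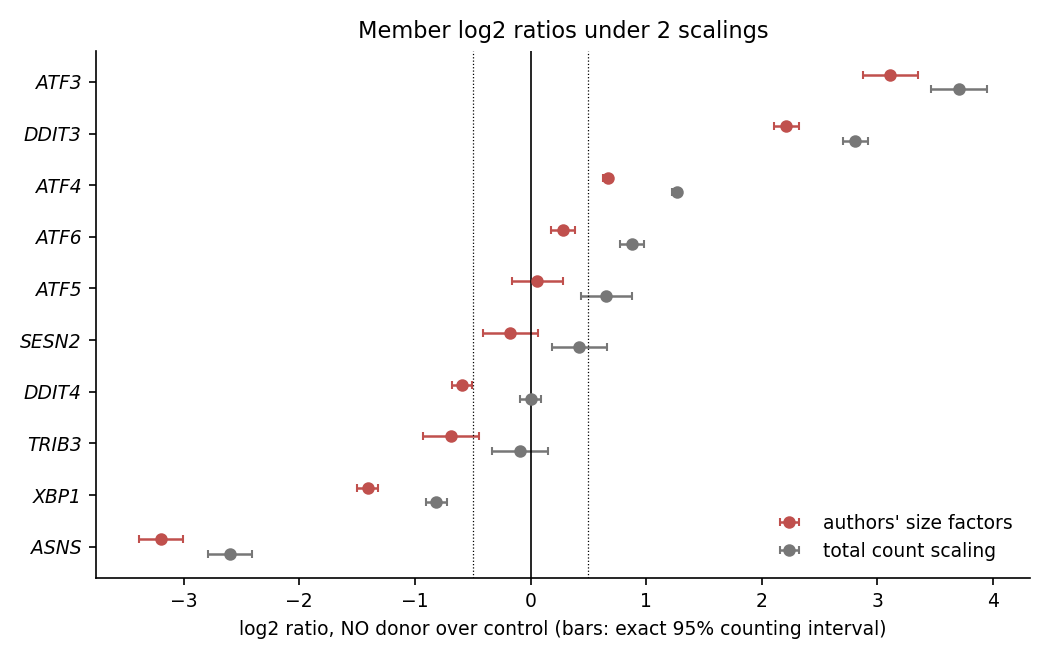
Log2 ratio of NO donor over control (horizontal axis) for each regulator with the authors' size factors (red) and with total count scaling (grey); bars are exact 95% counting intervals and dotted lines the size rule of 0.5. ATF3 and DDIT3 lie above 2 and ASNS below −2 under both, while DDIT4 and TRIB3 lie near 0 under total count scaling.

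DDIT4 and SESN2 restrain the growth kinase complex mTORC1. DDIT4 (chr14:75117708-75119907), which acts through the TSC complex and is also induced by hypoxia and glucocorticoids, had 783, 895 and 887 normalized counts in the control columns and 531, 585 and 589 in the NO donor columns. The columns did not overlap, and the log2 ratio was −0.60 (−0.68 to −0.51). This call rests on the scaling: by total counts the value was 0.000555 (−0.09 to 0.09). SESN2 (chr6:85321982-85348044), a leucine sensor that is also a target of p53 and NRF2, had 124, 87.5 and 107 normalized counts in the control columns and 99.4, 83.6 and 97.8 in the NO donor columns. These columns overlapped, and the interval of its log2 ratio, −0.17 (−0.41 to 0.06), held 0; total count scaling gave 0.42.

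ATF6 and XBP1 are the transcription factors of the other ER branches. ATF6 (chr4:88591279-88806156), made as a membrane-bound precursor, had 417, 477 and 457 normalized counts in the control columns and 572, 546 and 530 in the NO donor columns. The columns were apart by a small step. The log2 ratio of 0.28 (0.18 to 0.39) stayed below the size rule and passed it under total count scaling, at 0.88. Its span overlaps the uncharacterised LOC100154887 on the same strand, so reads may be shared. XBP1 (chr14:46011239-46016526), whose mRNA IRE1 splices to make the active factor, had 1125, 1140 and 1102 normalized counts in the control columns and 400, 417 and 450 in the NO donor columns. Its 2 groups of columns were well apart. The log2 ratio was −1.41 (−1.50 to −1.32), and −0.81 under total count scaling, so XBP1 was lower under both. The table counts XBP1 per gene and does not separate the spliced form.

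The 250 bases before the only annotated XBP1 start (chr14:46016527-46016776 of Sscrofa11.1, minus strand) are shown because they held the ER stress element, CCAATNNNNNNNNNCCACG, through which ATF6 and XBP1 act. Capitals mark the match, 82 to 64 bases before the start, on the strand of the gene.
XBP1 upstream window: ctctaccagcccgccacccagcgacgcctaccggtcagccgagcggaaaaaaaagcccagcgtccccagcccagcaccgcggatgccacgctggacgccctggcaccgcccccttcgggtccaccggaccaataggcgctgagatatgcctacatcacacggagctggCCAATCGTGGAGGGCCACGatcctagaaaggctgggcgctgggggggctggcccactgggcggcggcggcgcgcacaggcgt
Among the outermost starts 1 of 10 members held this element and 0.0678% of 20664 genes did, on either strand. The CRE, TGACGTCA, and the unfolded protein response element, TGACGTGG, were in 0 of the 23 member windows, and in 1.54% and 0.552% of all windows; the pair shares its first 6 letters. The limit given above for windows without a match holds here too. XBP1, the member with the ER stress element, was lower in the NO donor library.

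Columns that do not overlap were common in this table. The NO donor columns lay above the control columns for 4 of 10 members, against 36.7% of measured genes, and below for 4, against 36.3%. In the authors' deposited table the same 4 and 4 members had a DESeq2 adjusted p below 0.05, against 24.7% of genes higher and 26.4% lower. That p treats the columns as replicates and is no test of the donor. In the authors' deposited table the adjusted p was 0.0217 for ATF6, 0.774 for ATF5 and 0.564 for SESN2.

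**Figure D3:**
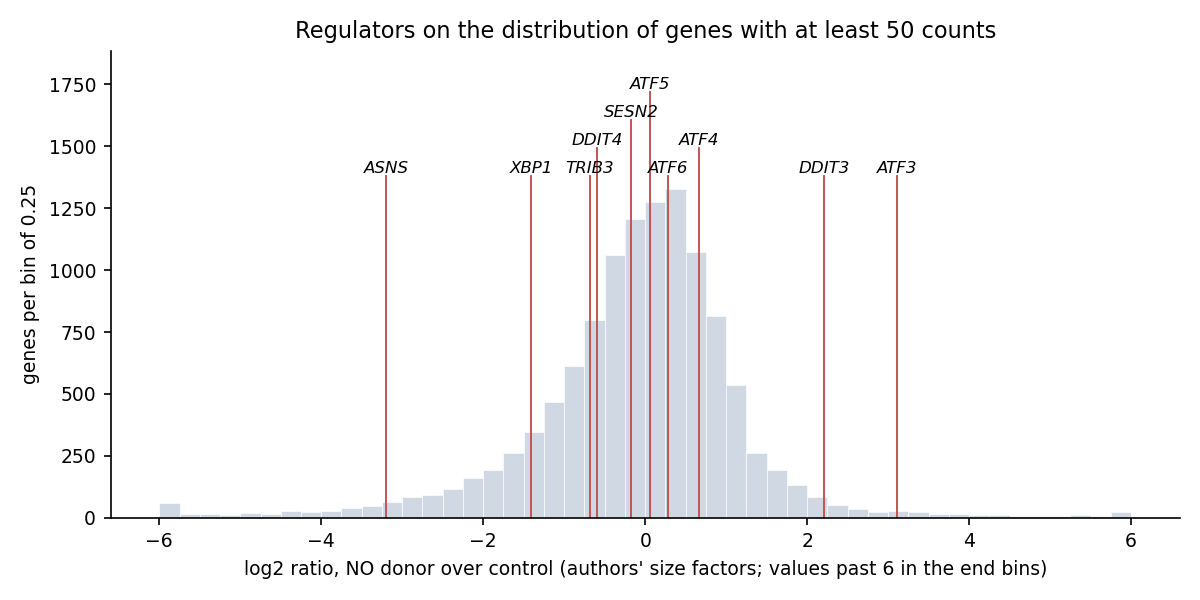
Number of genes per bin of 0.25 (vertical axis) by log2 ratio of NO donor over control (horizontal axis) for the 11746 genes with at least 50 counts; red lines mark the 10 regulators. ASNS, DDIT3 and ATF3 lie in the tails, while SESN2, ATF5 and ATF6 lie near the peak.

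Genes around the members were described by lists, with counts of genes higher and lower by the size rule in place of a test. Each list is to be read beside all measured genes, of which 29.5% were higher and 32.0% lower. By total counts these shares were 53.9% and 18.6%. A list near these shares shows nothing particular to its genes. In the control of eIF2, 4 of 17 measured genes were higher and 3 lower, and the median log2 ratio was 0.12; by total counts 11 were higher and 0 lower. PPP1R15A, which encodes GADD34, the phosphatase subunit that reverses eIF2 phosphorylation and is itself induced by ATF4 and CHOP, was 3.98-fold higher (3.66 to 4.34). OMA1, a mitochondrial protease that relays mitochondrial stress to the eIF2 kinases, rested on 34 control and 179 NO donor counts and was 3.57-fold higher (2.46 to 5.31). EIF2AK2, the RNA-sensing kinase PKR and an interferon response gene, was 2.12-fold lower (1.92 to 2.36); under total count scaling its log2 ratio was −0.49.

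Amino acid synthesis and transport genes known as ATF4 targets were mostly lower, with 15 of 19 measured genes below the size rule, 3 above it and the list's median at −1.49. Of all measured genes 32.0% were lower and 29.5% higher. By total counts 13 were lower, against 18.6% of all measured genes, 3 were higher, against 53.9%, and the median was −0.89. PSAT1 and PHGDH, enzymes of serine synthesis, went from 3189 to 24.7 and from 939 to 63.9 normalized counts. Their log2 ratios were −7.01 and −3.88. PYCR1, which makes proline, was 9.35-fold lower (8.56 to 10.2). The genes that were higher were SLC7A11, the cystine transporter, which NRF2 also induces, at 6.36-fold (5.81 to 6.97), SLC38A2, a neutral amino acid transporter, at 2.44-fold (2.32 to 2.57), and GOT1, an aspartate aminotransferase, at 1.55-fold (1.34 to 1.79). These 3 were named after their values were seen. ASNS, which is not counted in this list, lay with its lower genes.

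Cytosolic aminoacyl-tRNA synthetases, many of which ATF4 induces, split into 9 lower, 3 higher and 8 between among 20 genes, and their median was −0.36. By total counts 6 were lower, against 18.6% of all measured genes, and 8 were higher, against 53.9%. The median was then 0.23, where that of all measured genes was 0.60. The sign of the list's median thus depends on the scaling. Under both scalings the median lay below that of all measured genes. GARS, CARS and KARS, for glycine, cysteine and lysine, were 4.22-fold, 4.19-fold and 4.13-fold lower, and lower under both scalings.

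**Figure D4:**
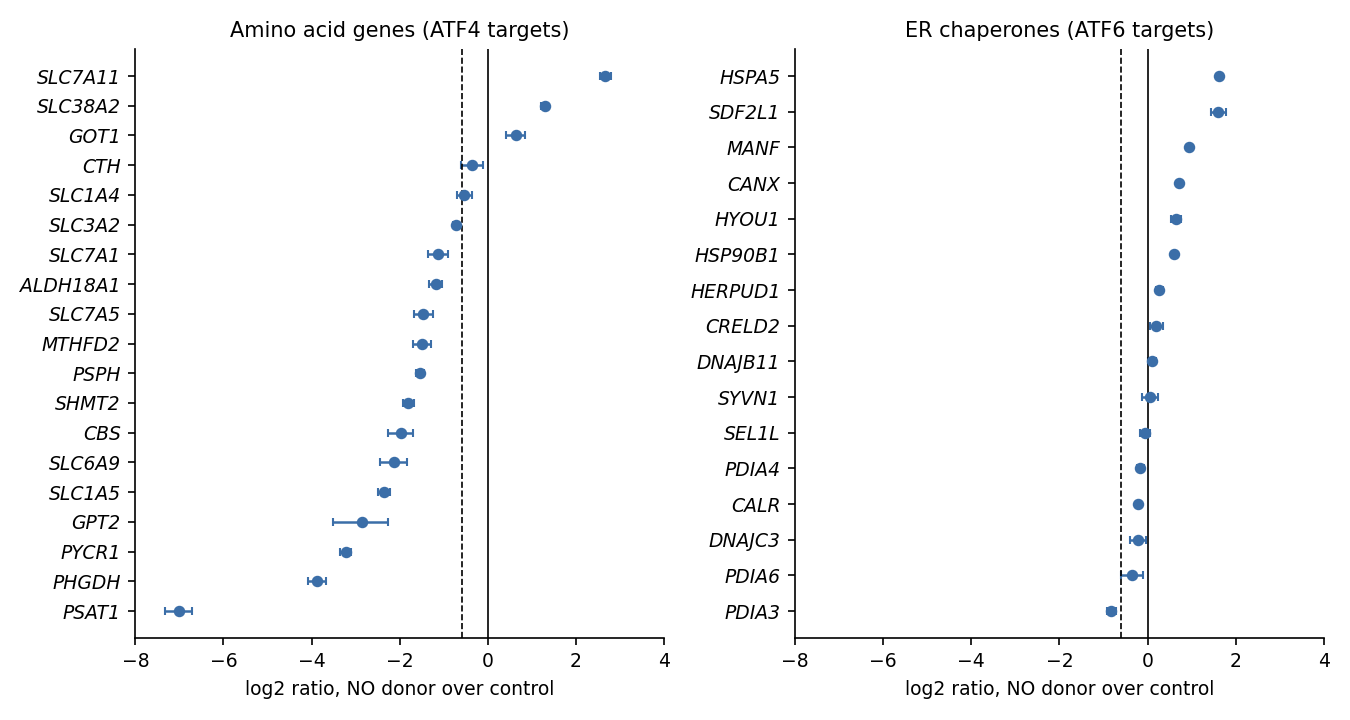
Log2 ratio of NO donor over control (horizontal axes, authors' size factors) with exact 95% counting intervals for 19 amino acid genes known as ATF4 targets (left) and 16 ER chaperone genes known as ATF6 targets (right); the dashed line is where total count scaling would place 0. Most amino acid genes lie left of both lines, led by PSAT1 at −7.01, and HSPA5 and SDF2L1 lie farthest right among the chaperones.

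Stress and death genes known as ATF4 or CHOP targets went both ways, 6 of 16 higher and 4 lower, their median at 0.23, while total counts gave 11 and 4. GDF15, a secreted stress hormone that p53 also induces, went from 62.2 to 883 normalized counts, 14.2-fold higher (12.1 to 16.8). Its columns varied more than Poisson counting gives, 7.37 times as much in the control and 7.48 times with the donor. VEGFA, which drives vessel growth and is also a hypoxia target, was 13.8-fold higher (12.3 to 15.4). JDP2, a repressor related to ATF3, was 9.59-fold lower (7.84 to 11.8). CHAC1, a glutathione-degrading enzyme often read as an ATF4 output, was 4.62-fold lower (3.99 to 5.36). VLDLR and EIF4EBP1 were 3.41-fold and 2.21-fold lower. In the same list CDKN1A, PMAIP1, SQSTM1 and ERO1A were 5.69-fold, 4.98-fold, 3.66-fold and 2.09-fold higher. CHAC1, VLDLR, EIF4EBP1, CDKN1A, PMAIP1, SQSTM1 and ERO1A were named after their values were seen. Among CREB/ATF and C/EBP relatives, 2 of 11 were higher, 2 were lower and the median was 0.06; total count scaling gave 6 and 2. CEBPD was 5.02-fold lower (4.90 to 5.13), while CEBPA rested on 11 and 119 counts, 7.33-fold higher (3.95 to 15.1).

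On the ER side, chaperone and folding genes known as ATF6 targets included 6 higher and 1 lower of 16, around a median of 0.15; by total counts these were 11 and 0. HSPA5, which encodes BiP, the chaperone that holds the ER sensors inactive, went from 1567 to 4850 normalized counts, 3.10-fold higher (2.99 to 3.20). SDF2L1, a BiP cofactor, was 3.05-fold higher (2.69 to 3.46) and MANF, a secreted ER stress factor, 1.92-fold (1.87 to 1.98). The NO donor columns of HSPA5 varied 8.45 times as much as Poisson counting gives, and those of MANF 14.5 times. The intervals of HSPA5 and MANF are thus narrower than the spread between columns would give, as are those of DDIT3 and GDF15 above. PDIA3, a disulphide isomerase, was the lower gene at −0.82, or −0.23 by total counts, and was named after its value was seen. HSPA5 counts per XBP1 count went from 1.40 to 11.5, 8.22-fold (Wald interval 7.66 to 8.83) whatever the scaling.

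Genes of ER transport and degradation known as XBP1 targets included 3 higher and 4 lower of 21, around a median of 0.23; total count scaling gave 14 and 3. The lower ones were led by SEC24D, a coat protein of vesicles that carry procollagen out of the ER, at 3.60-fold (3.28 to 3.96), WIPI1, an autophagy protein, at 2.69-fold, and SEC61B, a subunit of the ER translocation channel, at 2.48-fold. The higher ones were EDEM1 at 1.52-fold (1.40 to 1.66), SPCS3 at 1.45-fold (1.39 to 1.51) and SPCS2 at 1.43-fold (1.35 to 1.51). DNAJB9, a BiP cochaperone often read as an output of spliced XBP1, had a log2 ratio of 0.06 (−0.03 to 0.15). By total counts the DNAJB9 ratio was 0.66. EDEM1, SPCS3, SPCS2 and DNAJB9 were named after their values were seen. Among sensors and relatives, 2 of 11 were higher, 4 were lower and the median was −0.14; total count scaling gave 5 and 2. MBTPS1, the Golgi protease that cuts ATF6, was 4.67-fold lower (3.78 to 5.79). CREB3L1 and CREB3L2, relatives of ATF6 active in secretory and matrix-producing cells, were 2.66-fold and 1.91-fold lower, and CREB3L2 had −0.34 by total counts. The remaining lower gene was EIF2AK3, which encodes PERK, at −0.64, or −0.04 by total counts. The higher genes were ERN1, which encodes IRE1, at 1.69-fold (1.36 to 2.12), and RTCB at 1.68-fold (1.27 to 2.25). EIF2AK3, ERN1 and RTCB were named after their values were seen.

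Among mTORC1 and its regulators, 7 of 24 genes were higher, against 29.5% of measured genes, and 3 were lower, against 32.0%. The median was 0.09. Total counts gave 15 higher, against 53.9%, and 3 lower, against 18.6%. The lower genes were RHEB, the GTPase that activates mTORC1, at −1.49 from 97 and 51 counts, and the SESN2 relatives SESN1 at −1.44 (−1.91 to −0.98) and SESN3 at −1.29 (−1.52 to −1.06). All 3 stayed past the size rule under total count scaling, whereas SESN2 was never past it in either direction with the 2 scalings shown. RRAGD, with 11 NO donor counts and 0 in the control, was among the 7 higher genes and in the median through a floor of 3 counts per library; with at least 50 counts required, 6 genes were higher. It was named after its values were seen.

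**Figure D5:**
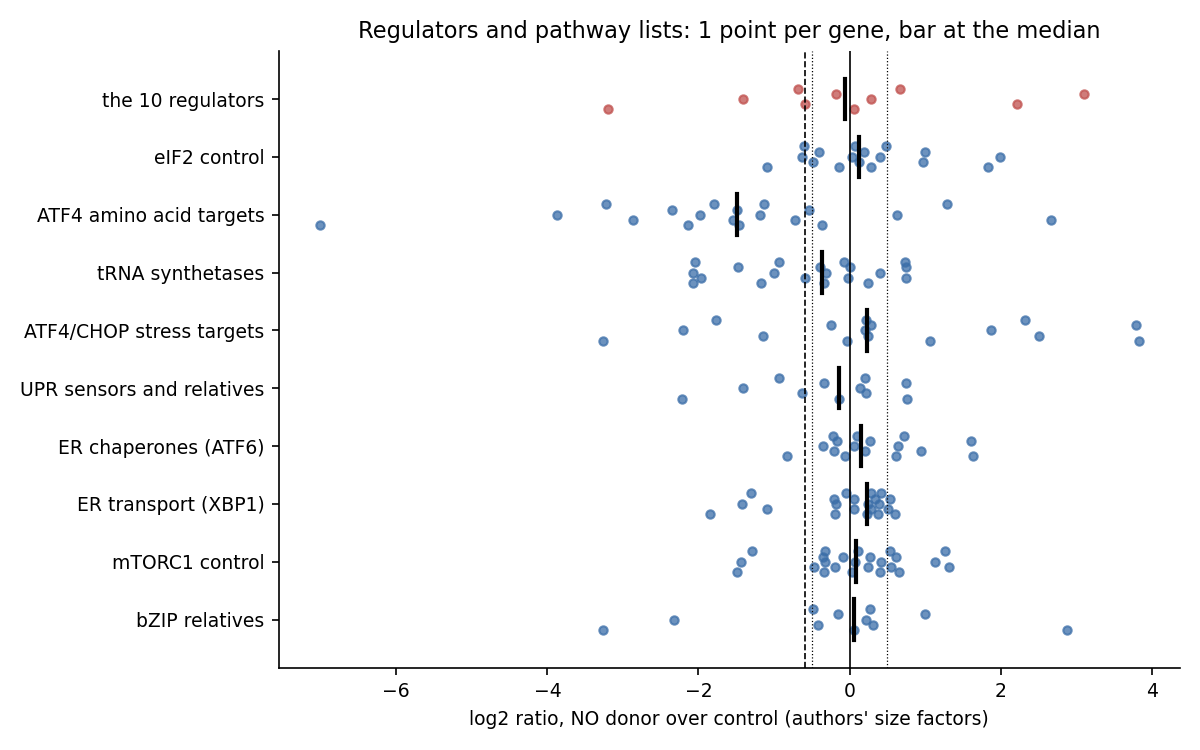
Log2 ratio of NO donor over control (horizontal axis, authors' size factors), 1 point per measured gene, for the 10 regulators (red) and 9 pathway lists (blue); black bars are medians, dotted lines the size rule of 0.5 and the dashed line the 0 of total count scaling. The amino acid list has its median at −1.49, to the left of the other lists.

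All 10 markers of valve interstitial cells, among them VIM, COL1A1 and PDGFRA, had counts. They summed to 192876 to 196572 in the control columns and 40355 to 42470 in the NO donor columns. Most of the control sum came from VIM, COL1A2, COL1A1 and COL3A1, with 75713, 53172, 35938 and 21810 normalized counts. PDGFRB had a log2 ratio of 0.04, whereas the other markers were lower, among them VIM at −1.51, PDGFRA at −2.21 and COL1A1 at −4.33. PECAM1 and EMCN, the 2 of 8 endothelial markers with a value, summed to 322 to 349 and 190 to 233. CD14 and CD68, the 2 of 8 leukocyte markers with a value, summed to 160 to 165 and 151 to 163. CD14 had 399 counts in the control cells and 556 with the donor, a log2 ratio of −0.08, whereas CD68 had 4 and 24, a log2 ratio of 2.02. Total count scaling, which adds 0.60 to every log2 ratio, puts PDGFRB and CD14 past the size rule as higher. Other endothelial and leukocyte markers, and the epithelial and cardiomyocyte lists, had no value analysed here. Ribosomal protein genes took 27.2% of control counts and 11.5% of NO donor counts. The part of these differences in the results above was not tested.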

How the data were processed

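The labels describe 4 single-cell RNA libraries; per the submitters' processing notes, the tools were Cell Ranger, DESeq2 and Seurat 3.0 and the build Sscrofa11.1, with no role given. Per the file headers, the authors deposited 3 columns of normalized counts for each of 2 libraries, a signal divided by a size factor per column. Dividing each column by the value of 1 count, fitted to its low values, gave whole numbers, within 0.01, for 100% of values, and these recovered counts were summed per library. The authors' log2 fold change, the Wald score and the DESeq2 p-value and adjusted p-value, per the file headers, are used where named. No count model was run, since the columns are not known to be replicates; the planned results were descriptions. Log2 ratios divide summed counts by summed size factors, with no pseudocount and a floor of 3 counts for a library at 0. Intervals are exact Poisson ones for levels and exact binomial ones for NO donor over control; ratios between genes have Wald intervals. The ratio code was tested on simulated data.

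Members, lists and rules were chosen with earlier results of these data known. Beside the 10 members, up to 3 genes of each of 9 lists were named, those with the largest log2 ratio in size among genes with at least 50 counts, 26 in all; others are marked. Alternatives were total counts, total counts without 75 ribosomal protein genes, edgeR 4.0.16 TMM, upper quartile scaling, the authors' fold change, each column left out, a size rule of 1 and a minimum of 50 counts. Starts and upstream bases came from the RefSeq annotation and genome of Sscrofa11.1, in which all 10 members matched by symbol. Python 3.11.15 and scipy 1.17.1 were used.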

Additional observations from a re-analysis of the deposited data

How the results depend on the processing

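The counts of members past the size rule depended on the scaling of the libraries. With total counts 5 members were higher, against 53.9% of measured genes, and 2 lower, against 18.6%. The members' median log2 ratio was then 0.54, where that of all measured genes was 0.60. Without ribosomal protein genes in the totals 4 were higher, against 42.2% of measured genes, and 2 lower, against 23.7%; the median was 0.26, where that of all measured genes was 0.31. A size rule of 1 left 2 lower, against 20.2% of measured genes, and 2 higher, against 14.5%. Total count scaling, which adds the same amount to every log2 ratio, put DDIT4 at 0.000555, with an interval on both sides of 0. TMM and upper quartile scaling moved every ratio by 0.02 and 0.00488, and with them, with the authors' deposited log2 fold change and with at least 50 counts the members' counts were unchanged. With each column left out in turn, ATF3 ran from 3.02 to 3.23, DDIT3 from 2.16 to 2.25, ATF4 from 0.66 to 0.68, DDIT4 from −0.65 to −0.55, TRIB3 from −0.77 to −0.56, XBP1 from −1.46 to −1.37 and ASNS from −3.25 to −3.16, so their calls held, while ATF5 ran from −0.09 to 0.17. No paired analysis was possible because each group has 1 library.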
